A study of Homo sapiens with 12 samples.

Results

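MGMT and 6 genes of DNA mismatch repair (MSH3, MSH6, MLH3, PMS1, PMS2 and EXO1) were followed in the established human glioma line U-87 MG under temozolomide (TMZ). The 7 genes were taken as a named set and read through every probe set annotated with 1 gene symbol, which gave 17 of 41097 such probe sets and a value for 6 of the 7 genes. The 19775 genes measured in the same way were the background. The study used 4 groups of 3 arrays: shp105 cells with TMZ, shp105 cells with DMSO, shControl cells with TMZ and shControl cells with DMSO. Cells called shp105 carried a stably transfected hairpin against p105, the NFKB1 product from which the NF-kB subunit p50 is made, and shControl cells carried a control hairpin in the same manner. All were cultured in serum-containing medium, and TMZ was given at 100 uM or replaced by its vehicle DMSO, each for 16 h. The labels do not say whether a hairpin line was a clone or a pool, nor whether the 3 biological replicates of a group came from separate transfections. The p-values therefore cover the spread among these 12 samples and nothing wider. The question behind the design is whether NF-kB deficiency alters the answer to TMZ.

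TMZ methylates DNA bases, and its O6-methylguanine lesion is the one tied to killing of glioma cells. MGMT removes that methyl group from guanine in a single step and is used up by doing so. Where the lesion persists, it mispairs with thymine during replication, and mismatch repair acts on the mispair in the new strand while the lesion stays in the template. MutS complexes recognise the mismatch (MSH6 is the partner in MutSalpha, for base mismatches, and MSH3 the partner in MutSbeta, for larger loops), MutL complexes are recruited (PMS2, PMS1 and MLH3 are alternative subunits), and the exonuclease EXO1 removes the strand. Loss of MSH6 or PMS2 is known to make cells tolerant of methylating drugs, and methylation of the MGMT promoter is known to silence the gene in many gliomas.

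The start regions of 4 of these genes are printed because the results turn on their transcripts. They come from RefSeq (GRCh38.p14), on the plus strand, as 280 bases that begin 250 bases before the listed start. MGMT, chr10:129466991-129467270, has its CpG dinucleotides in capitals, the positions at which promoter methylation occurs. Methylation was not measured here.
MGMT: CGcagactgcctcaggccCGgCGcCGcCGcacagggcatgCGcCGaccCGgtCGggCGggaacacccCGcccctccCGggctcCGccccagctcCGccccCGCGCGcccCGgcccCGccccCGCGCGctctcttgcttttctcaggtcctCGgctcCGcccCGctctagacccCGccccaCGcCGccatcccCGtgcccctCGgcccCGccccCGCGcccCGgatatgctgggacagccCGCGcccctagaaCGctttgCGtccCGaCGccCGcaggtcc
In the other 3 sequences, capitals mark matches on either strand to E2F letters (TTTCCCGC, TTTCGCGC, TTTGGCGC or TTTGCCGC), the CRE letters (TGACGTCA) or the CCAAT box. They are EXO1 at chr1:241847954-241848233, PMS1 at chr2:189784200-189784479 and MSH6 at chr2:47782895-47783174.
EXO1: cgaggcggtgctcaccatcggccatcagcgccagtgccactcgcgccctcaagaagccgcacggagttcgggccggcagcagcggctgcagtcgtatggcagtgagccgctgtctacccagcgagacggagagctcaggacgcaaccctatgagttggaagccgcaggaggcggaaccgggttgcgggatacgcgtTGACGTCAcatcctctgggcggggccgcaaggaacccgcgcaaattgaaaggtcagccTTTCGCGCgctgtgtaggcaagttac
PMS1: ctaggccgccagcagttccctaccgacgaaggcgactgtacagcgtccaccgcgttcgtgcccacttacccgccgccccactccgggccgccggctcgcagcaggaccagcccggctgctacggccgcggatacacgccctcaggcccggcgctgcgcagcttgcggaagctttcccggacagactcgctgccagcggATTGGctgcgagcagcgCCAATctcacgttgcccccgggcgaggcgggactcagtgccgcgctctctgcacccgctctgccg
MSH6: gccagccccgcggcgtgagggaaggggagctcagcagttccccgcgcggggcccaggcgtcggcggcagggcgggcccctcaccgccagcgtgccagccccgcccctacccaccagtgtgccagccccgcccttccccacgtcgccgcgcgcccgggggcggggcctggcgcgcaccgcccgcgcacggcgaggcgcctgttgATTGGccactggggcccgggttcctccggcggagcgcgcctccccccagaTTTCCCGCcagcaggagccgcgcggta
A promoter window was found for all 7 genes and searched over 300 bases. EXO1 (2), PMS2 (2) and MSH6 (4) have more than 1 start in the promoter table, of which the most upstream was used. For EXO1 that start lies 218 bases inside the annotated gene. The MGMT window held 45 CpG, more than 96.6% of the 27305 promoters searched, whose median was 13. It also held 8 GC boxes (GGGCGG) and no E2F, CRE or CCAAT letters. E2F letters occurred once each in EXO1, MSH6 and PMS2 and as 2 overlapping matches in MSH3, against 3.3% of all promoters. The CRE letters occurred in EXO1 and PMS2, against 2.0% of all promoters. PMS1 held 2 CCAAT boxes and no E2F letters, and a CCAAT box was present in 35.7% of all promoters. None of the 7 windows held the kappaB motif, which 5.7% of all promoters held. These are matches of letters within a fixed window and not binding sites.

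All arrays had a median log2 level between 5.04 and 5.09, and within a group any 2 arrays correlated at 0.997 to 0.998 across genes. Of 9 glioma markers read, VIM (mean log2 level 14.77) and CD44 (12.83) were high. NES (5.23), GFAP (5.11) and SOX2 (5.10) lay close to the array medians. S100B, FABP7 and AQP4 lay within the background range on all 12 arrays. The U-87 identity comes from the labels, and these levels do not establish it. CHI3L1 moved with the line, averaging 7.42 in shp105 cells and 4.46 in shControl cells under TMZ (adjusted p = 1.88e-08) and 6.91 in shp105 cells and 4.71 in shControl cells under DMSO (adjusted p = 2.12e-07). CD44 was lower in shp105 cells by a log2 difference of -0.32 under TMZ and -0.25 under DMSO. NFKB1, the hairpin's target, was lower in shp105 cells under TMZ (log2 difference -0.25, SE 0.07, limma adjusted p = 0.0204), while its difference under DMSO did not pass the test (-0.12, adjusted p = 0.260). The TMZ call was lost without shp105_TMZ replicate 1 or 3 and without shControl_TMZ replicate 1 or 2 (adjusted p up to 0.0903). The NFKB1 difference with TMZ was -0.04 in shp105 cells and 0.09 in shControl cells, and neither passed. The mean of the hybridization spike-ins, control transcripts of known amount, averaged 11.32 and 11.13 in shp105 cells with TMZ and with DMSO, against 10.95 and 10.63 in shControl cells with TMZ and with DMSO. For RNA integrity, the GAPDH signal at the 3' end minus that at the 5' end was 0.33 to 0.44 on the shp105 arrays and 0.22 to 0.32 on the shControl arrays, without overlap, whereas the same measure for ACTB overlapped (2.94 to 3.15 on the shp105 arrays and 2.78 to 3.07 on the shControl arrays). The spike-in signal thus moved with the line, and in shControl cells also with TMZ. In shControl cells it was 10.84 to 11.01 with TMZ and 10.57 to 10.67 with DMSO, without overlap. In shp105 cells it was 11.18 to 11.43 with TMZ and 11.01 to 11.20 with DMSO, which overlapped. In 1 fit that took it as a covariate, no call on these genes remained, while the EXO1 and PMS1 line differences under DMSO were -0.28 and -0.36 (-0.30 and -0.23 without the covariate) and EXO1 with TMZ in shp105 cells was 0.35 (0.34 without it).

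MGMT (10:129467241-129770983, plus strand) lay within the range of the background controls in every group. Its single probe set read 3.55, 3.42 and 3.29 in shp105 cells with TMZ and 3.40, 3.46 and 3.46 in shp105 cells with DMSO, as log2 levels. In shControl cells it read 3.56, 3.07 and 3.52 with TMZ and 3.67, 3.62 and 3.71 with DMSO. The background was taken from 27 control probe sets for bacterial sequences that the cells lack, which lay between 2.33 and 4.30 with a median of 2.96 and a 95th percentile of 3.57. Not 1 of the 12 MGMT values exceeded the highest control, and 6 of 12 exceeded the 95th percentile of the controls on their own array. A level in this range cannot be told apart from no transcript, and differences in it cannot be read as differences in MGMT. The 3 shControl arrays with DMSO were above the other 9 arrays.

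In shp105 cells the MGMT difference, TMZ minus DMSO, was -0.02 (SE 0.11, 95% interval -0.27 to 0.23, limma adjusted p = 0.948). In shControl cells it was -0.28 (SE 0.11, interval -0.53 to -0.04, adjusted p = 0.378), and all 3 TMZ arrays lay below the 3 DMSO arrays. The line difference, shp105 minus shControl, was 0.04 under TMZ (adjusted p = 0.870) and -0.23 under DMSO (interval -0.47 to 0.02, adjusted p = 0.212). The DMSO line difference passed without shControl_TMZ replicate 2, the lowest MGMT value (adjusted p = 0.0408), and with only both DMSO groups in the fit (0.0264). Over both treatments the line difference was -0.09 (adjusted p = 0.444), and without that array it was -0.17 (adjusted p = 0.0272). ALKBH2 and ALKBH3, which reverse other alkyl lesions by oxidation, passed in neither the TMZ responses nor the line comparisons. ALKBH1 of the same family was lower in shp105 cells under TMZ (-0.19, limma adjusted p = 0.0227) and under DMSO (-0.17, adjusted p = 0.0375). Of all genes, 21.1% and 19.9% were called in these 2 line comparisons. With 1 array left out, the ALKBH1 call was lost in 3 fits under TMZ (adjusted p up to 0.0897) and in 6 under DMSO (up to 0.148).

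**Figure D1:**
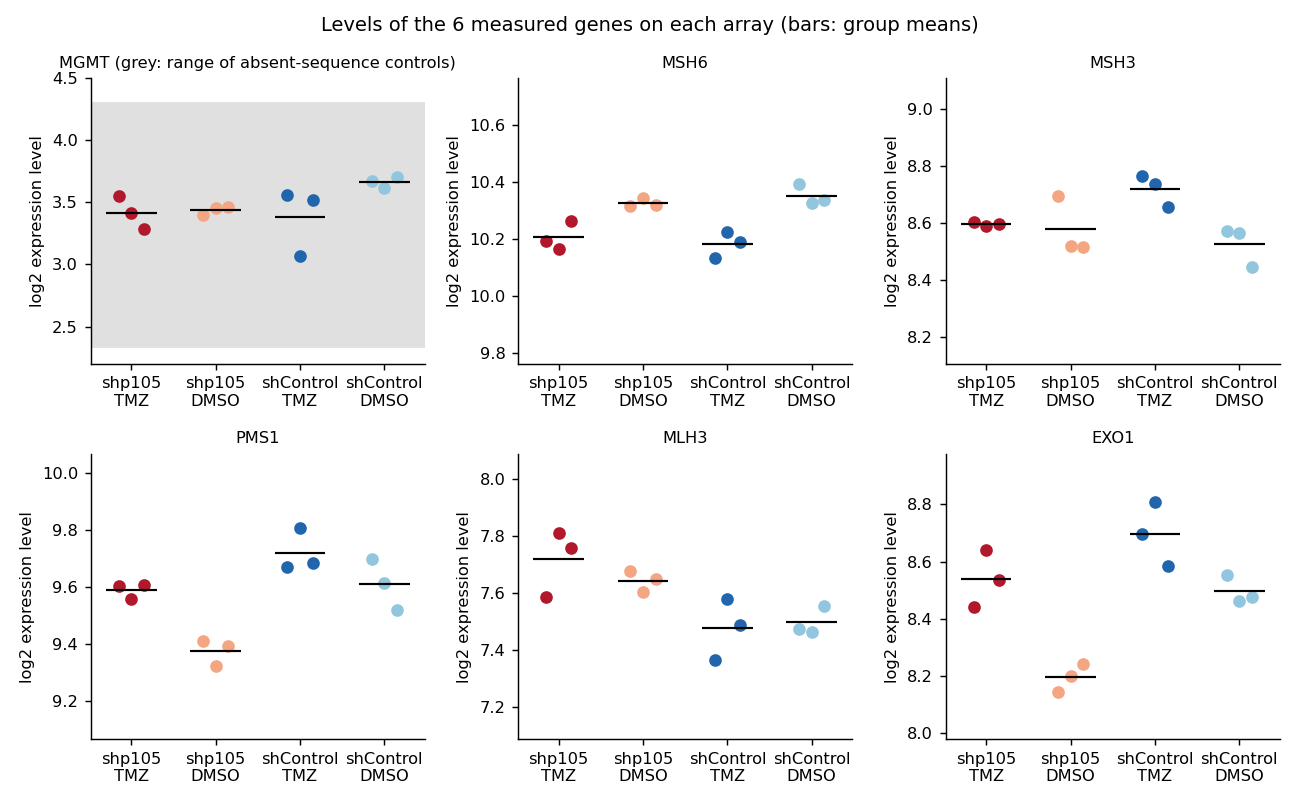
Log2 expression level (vertical axis) of the 6 measured genes on each of the 12 arrays, with points for arrays and bars for group means of 3 arrays. The MGMT points lie inside the grey band of control probe sets (2.33 to 4.30). EXO1 and PMS1 are lowest in shp105 cells with DMSO, and in both lines the MSH6 points with TMZ lie below those with DMSO.

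Of the 6 measured genes, EXO1 alone passed the test for the TMZ response in shp105 cells, and none passed for the response in shControl cells. Among all 19775 genes, 0.865% were called in shp105 cells and 0.369% in shControl cells, so the count in shp105 cells rests on 1 gene. The arrays of the 2 treatments did not overlap for 3 of 6 genes in shp105 cells and 4 of 6 in shControl cells, against 20.4% and 20.3% of all genes. The 4 in shControl cells include MGMT, whose values lie within background. The median log2 difference of the 6 genes was 0.05 in shp105 cells and 0.04 in shControl cells, beside 0.01 and -0.00 over all genes. Between the lines, the arrays did not overlap for 3 of 6 genes under TMZ and 4 of 6 under DMSO, against 35.7% and 35.9% of all genes, and the 4 under DMSO again include MGMT. MLH3 passed under TMZ (1 of 6, with 21.1% of all genes called) and PMS1 and EXO1 passed under DMSO (2 of 6, with 19.9% called). The median line difference of the 6 genes was -0.05 under TMZ and -0.13 under DMSO, beside -0.01 over all genes under each treatment.

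Averaging over the other factor uses the same arrays again, with 6 against 6. TMZ minus DMSO over both lines was called for EXO1 and MSH6 (2 of 6, with 3.36% of all genes called). The line difference over both treatments was called for EXO1, PMS1 and MLH3 (3 of 6, with 30.1% called). The difference between the 2 TMZ responses, tested directly as an interaction, was called for none of the 6 genes and for 0% of all genes in limma. Unadjusted p-values under 0.05 were found for 0 of the 6 genes and for 1266 of all genes. The differences of the responses were 0.26 for MGMT, 0.05 for MSH6, -0.17 for MSH3, 0.10 for PMS1, 0.10 for MLH3 and 0.14 for EXO1. Of the genes not called with TMZ over both lines, PMS1 was at 0.16 (SE 0.04, adjusted p = 0.0639), MSH3 at 0.11 (adjusted p = 0.214), MLH3 at 0.03 and MGMT at -0.15 (adjusted p = 0.326).

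**Figure D2:**
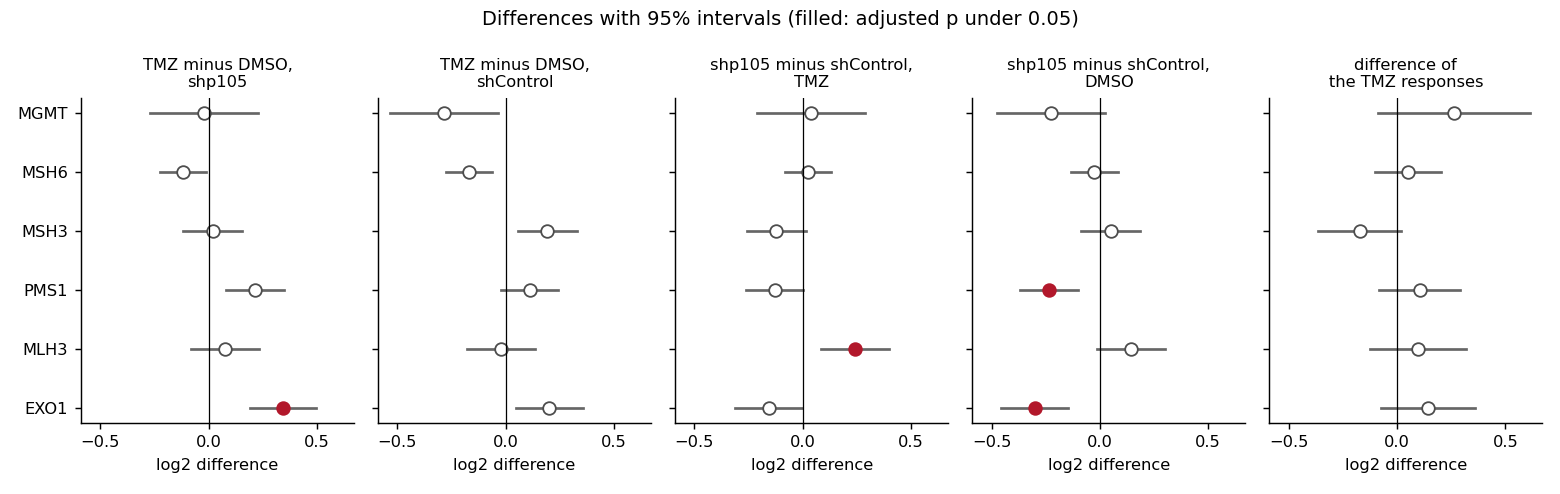
Log2 differences (horizontal axis) of the 6 measured genes with 95% intervals, 1 panel per comparison. Filled points passed an adjusted p of 0.05: EXO1 for TMZ minus DMSO in shp105 cells, MLH3 for shp105 minus shControl under TMZ, and PMS1 and EXO1 for shp105 minus shControl under DMSO. No point is filled for the TMZ response of shControl cells or for the difference of the responses.

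MSH6 (2:47783145-47810101, plus strand), the mismatch-recognition partner of MutSalpha, was lower with TMZ when both lines were averaged. Its log2 level was 10.19, 10.16 and 10.26 in shp105 cells with TMZ and 10.32, 10.34 and 10.32 in shp105 cells with DMSO. In shControl cells it was 10.14, 10.22 and 10.19 with TMZ and 10.39, 10.33 and 10.34 with DMSO. All 6 TMZ arrays were below all 6 DMSO arrays, a separation found for 1.7% of all genes in either direction. The averaged difference was -0.14 (SE 0.03, interval -0.22 to -0.07, adjusted p = 0.0462), which is a 1.11-fold lower level. Within shp105 cells it was -0.12 (SE 0.05, adjusted p = 0.260) and within shControl cells -0.17 (SE 0.05, adjusted p = 0.228), and neither passed.

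The averaged call sat close to the threshold: it was kept without shp105_TMZ replicate 3 (adjusted p = 0.0492) and lost without any of the other 11 arrays (0.0729 to 0.115). The difference itself stayed between -0.16 and -0.13 in these fits. Its line difference was -0.00 over both treatments (SE 0.03, adjusted p = 0.993). A second MSH6 probe set above background gave another value. It averaged 7.04 in shp105 cells with TMZ and 7.14 in shp105 cells with DMSO, against 7.32 in shControl cells with TMZ and 7.56 in shControl cells with DMSO (n = 3 each). Every shp105 array with DMSO lay below every shControl array with DMSO, and its line difference there was -0.43 (SE 0.11, adjusted p = 0.0186 over all probe sets, of which 14.4% were called). That call was lost without shp105_DMSO replicate 1 (adjusted p = 0.0824) or shControl_DMSO replicate 1 (0.0795). Over both treatments it was -0.35 (SE 0.08, adjusted p = 0.00422, 24.6% called). The probe sets of MSH6 therefore disagreed on the line difference, and both gave a lower value with TMZ (-0.17 at the second one, adjusted p = 0.310, not called).

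MSH3 (5:80654652-80876815, plus strand), the partner of MutSbeta, passed in no comparison. Its log2 level was 8.61, 8.59 and 8.60 in shp105 cells with TMZ and 8.70, 8.52 and 8.52 in shp105 cells with DMSO, and these groups overlapped. In shControl cells it was 8.77, 8.74 and 8.66 with TMZ and 8.57, 8.57 and 8.45 with DMSO, which did not overlap. The TMZ response was 0.02 (SE 0.06, adjusted p = 0.912) in shp105 cells and 0.19 (SE 0.06, interval 0.06 to 0.33, adjusted p = 0.283) in shControl cells. The difference between these responses had an SE of 0.09 (adjusted p = 0.797). The line difference was -0.12 under TMZ (SE 0.06, adjusted p = 0.204), with all 3 shp105 arrays below the 3 shControl arrays, and 0.05 under DMSO (adjusted p = 0.682). MSH4, a MutS homolog of meiosis, averaged 2.92 and lay within the background range.

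PMS1 (2:189784450-189877629, plus strand), a MutL subunit without an established part in strand-specific repair, was lower in shp105 cells under DMSO. Its log2 level was 9.41, 9.32 and 9.39 in shp105 cells with DMSO, against 9.70, 9.61 and 9.52 in shControl cells with DMSO, without overlap. The line difference was -0.23 (SE 0.06, interval -0.37 to -0.10, adjusted p = 0.0166), a 1.18-fold lower level. Under TMZ the levels were 9.60, 9.56 and 9.61 in shp105 cells and 9.67, 9.81 and 9.68 in shControl cells. These did not overlap either, but the difference of -0.13 (SE 0.06, adjusted p = 0.163) did not pass. Over both treatments it was -0.18 (SE 0.04, adjusted p = 0.00624).

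The DMSO call for PMS1 was lost without shp105_DMSO replicate 2 (adjusted p = 0.0624) and without shControl_DMSO replicate 1 (0.0732). It also rested on the brightest of 5 PMS1 probe sets: with the mean of all 5 the difference was 0.04 (adjusted p = 0.779), and 2 of the 5 lay within the background range. Another one above that range read 0.19 under DMSO (adjusted p = 0.312, not called), with all shp105 arrays above all shControl arrays. The remaining one above it read 0.00. With TMZ, PMS1 read 0.21 higher in shp105 cells (SE 0.06, interval 0.08 to 0.35, adjusted p = 0.116) and 0.11 higher in shControl cells (SE 0.06, adjusted p = 0.541), neither of which passed. The shp105 value passed when dim genes were left out (adjusted p = 0.0289) and with trend and robust variance fitting (0.0214).

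ORMDL1, a regulator of sphingolipid synthesis that is transcribed away from PMS1 from a start 111 bases upstream, is the divergent neighbour of PMS1. Its level was 11.12, 11.22 and 11.13 in shp105 cells with TMZ and 11.16, 11.16 and 11.21 in shp105 cells with DMSO, against 11.43, 11.39 and 11.39 in shControl cells with TMZ and 11.44, 11.40 and 11.45 in shControl cells with DMSO. All shp105 arrays were below all shControl arrays, a separation found for 18.1% of all genes in either direction. The line difference was -0.25 under TMZ (adjusted p = 0.00295) and -0.25 under DMSO (adjusted p = 0.00268), where 21.1% and 19.9% of all genes were called. Its TMZ responses were -0.02 in shp105 cells and -0.03 in shControl cells and did not pass.

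MLH3 (14:75013775-75051467, minus strand), a MutL subunit with a main role in meiotic crossing over, was the 1 called gene of the 6 that was higher in shp105 cells. Its log2 level was 7.59, 7.81 and 7.76 in shp105 cells with TMZ, against 7.36, 7.58 and 7.49 in shControl cells with TMZ, with the lowest shp105 array just above the highest shControl array. With DMSO it was 7.68, 7.60 and 7.65 in shp105 cells and 7.47, 7.46 and 7.56 in shControl cells. All 6 shp105 arrays lay above all 6 shControl arrays, a separation found for 18.1% of all genes in either direction. The line difference was 0.24 under TMZ (SE 0.07, interval 0.08 to 0.40, adjusted p = 0.0323), 0.15 under DMSO (SE 0.07, adjusted p = 0.203) and 0.19 over both (SE 0.05, adjusted p = 0.0119). The TMZ responses were 0.08 in shp105 cells and -0.02 in shControl cells, and neither passed.

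The MLH3 call under TMZ was lost without shp105_TMZ replicate 2 (adjusted p = 0.105), shp105_TMZ replicate 3 (0.0900), shControl_TMZ replicate 1 (0.134) or shControl_TMZ replicate 3 (0.0743). The other 2 MLH3 probe sets gave 0.05 and -0.04 over both treatments, and with the mean of the probe sets the difference under TMZ was 0.05 (adjusted p = 0.664). PMS2 (7:5970925-6009106, minus strand), the endonuclease subunit of MutLalpha, had no probe set of its own. Its 2 probe sets are shared with the pseudogene PMS2CL, and no value is given.

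EXO1 (1:241847986-241889939, plus strand), the 5'-to-3' exonuclease that removes the mismatched strand, changed in the most comparisons of the 6 genes. In shp105 cells its log2 level was 8.44, 8.64 and 8.54 with TMZ, against 8.14, 8.20 and 8.24 with DMSO, without overlap. In shControl cells it was 8.70, 8.81 and 8.58 with TMZ, against 8.55, 8.46 and 8.47 with DMSO, also without overlap. The 3 shp105 arrays with DMSO were the lowest of the 12. TMZ minus DMSO was 0.34 in shp105 cells (SE 0.07, interval 0.19 to 0.50, adjusted p = 0.0485), a 1.27-fold higher level, and 0.20 in shControl cells (SE 0.07, interval 0.05 to 0.35, adjusted p = 0.314), which did not pass. The difference between these responses was 0.14 (SE 0.10, interval -0.07 to 0.36, adjusted p = 0.869).

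Averaged over both lines, EXO1 was 1.21-fold higher with TMZ (log2 difference 0.27, SE 0.05, adjusted p = 0.0165), a call lost without shControl_DMSO replicate 2 (adjusted p = 0.0525). The call in shp105 cells alone was kept without shp105_TMZ replicate 1 or shControl_TMZ replicate 2 and lost without any of the other 10 arrays (adjusted p 0.0501 to 0.134). The value stayed between 0.29 and 0.39 in these fits. Between the lines, EXO1 was 1.23-fold lower in shp105 cells under DMSO (-0.30, SE 0.07, interval -0.45 to -0.15, adjusted p = 0.00944). This call was kept without each of the 12 arrays in turn (adjusted p 0.00690 to 0.0415). Under TMZ the line difference was -0.16 (SE 0.07, adjusted p = 0.144), the arrays overlapped and the test was not passed, while over both treatments it was -0.23 (SE 0.05, adjusted p = 0.00374).

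EXO1 and PMS1 both had their highest mean in shControl cells with TMZ and their lowest in shp105 cells with DMSO. The middle groups were in opposite order in the 2 genes. The EXO1 means were 8.54 (SD 0.10), 8.19 (SD 0.05), 8.70 (SD 0.11) and 8.50 (SD 0.05) in shp105 cells with TMZ, shp105 cells with DMSO, shControl cells with TMZ and shControl cells with DMSO. The corresponding PMS1 means, from its brightest probe set alone, were 9.59 (SD 0.03), 9.38 (SD 0.05), 9.72 (SD 0.08) and 9.61 (SD 0.09). For both genes, shp105 cells with TMZ and shControl cells with DMSO differed by less than the SD of either group. Over the 12 arrays their levels correlated at r = 0.90, and at 0.35 after each group's mean was removed. The first value describes arrays that share 2 lines and 2 treatments.

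**Figure D3:**
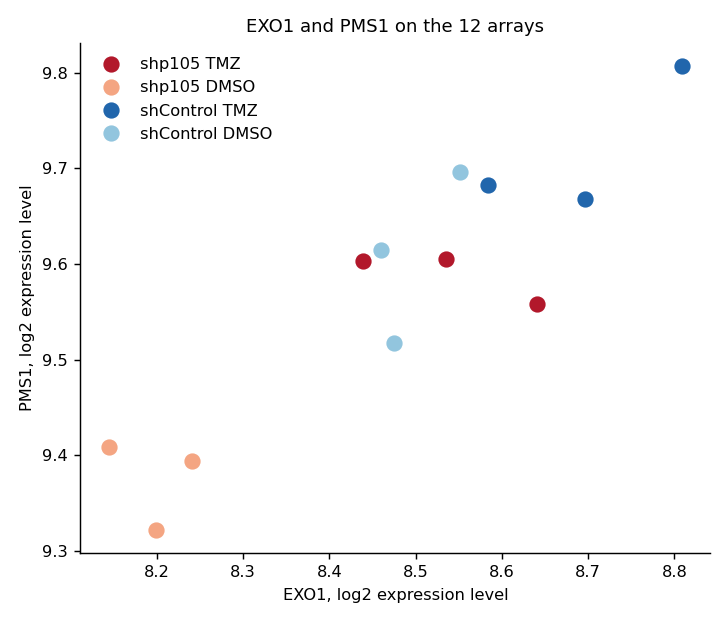
PMS1 against EXO1, both as log2 levels, with 1 point per array and 1 colour per group. The shp105 arrays with DMSO stand at the lower left (EXO1 8.14 to 8.24), the shControl arrays with TMZ at the upper right (EXO1 8.58 to 8.81), and the 2 remaining groups lie between, next to the shControl arrays with TMZ.

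The 17 probe sets differed in how far they stood above background. The mean lay within the control range for 6 of them: the MGMT probe set, 1 of 3 for MSH3, 2 of 4 for MSH6 and 2 of 5 for PMS1. All 3 MLH3 probe sets and the EXO1 probe set were above it. Another PMS1 probe set above background read -0.26 with TMZ in shp105 cells (adjusted p = 0.358, not called), opposite in sign to the one used for the gene. For MSH3 the second probe set above background gave a line difference of 0.11 over both treatments (adjusted p = 0.148), where the one used for the gene gave -0.04. Under TMZ alone the second gave 0.14 (adjusted p = 0.224, not called), against -0.12, with all shp105 arrays above all shControl arrays. Its TMZ response in shControl cells was 0.00 (adjusted p = 0.999), against 0.19. EXO1 had a single probe set, so its values had no second reading.

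**Figure D4:**
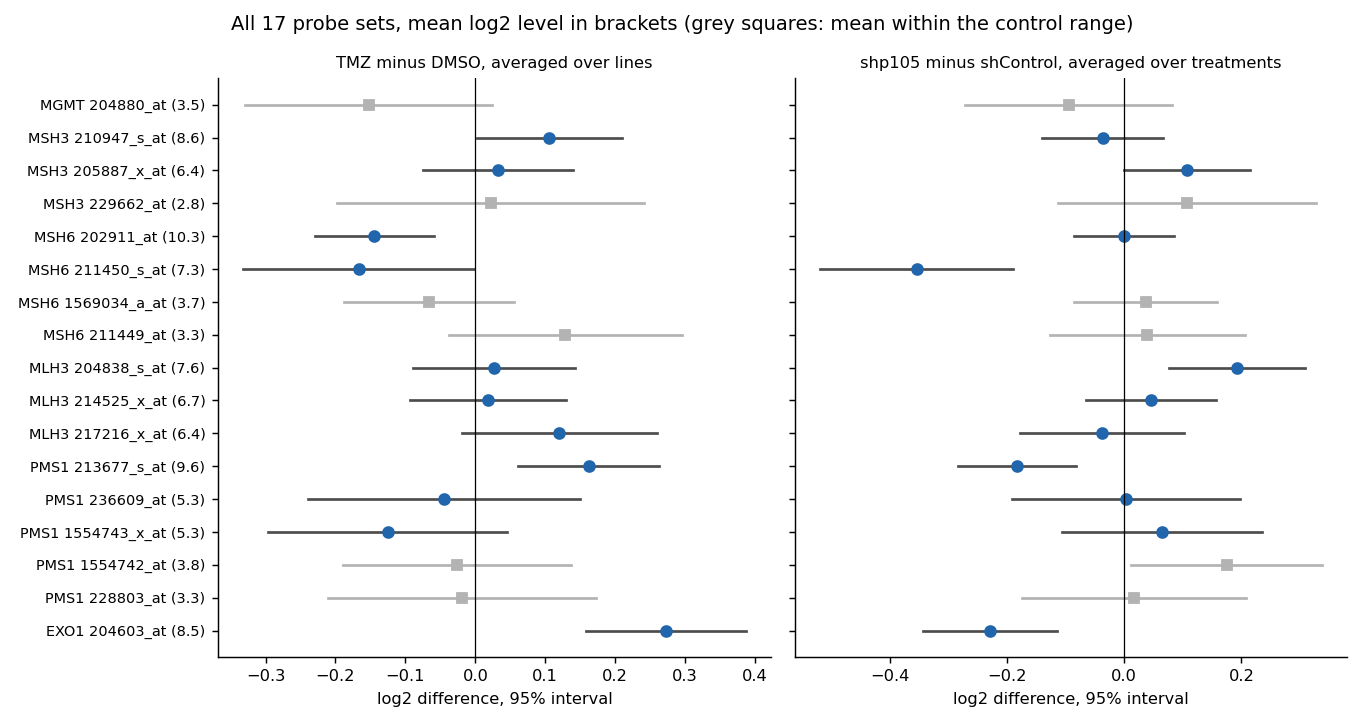
Log2 differences with 95% intervals for all 17 probe sets, averaged over lines (left) or treatments (right), with the mean level in brackets. Grey squares are probe sets within the control range. The second MSH6 probe set stands at -0.35 in the right panel where the first stands at -0.00, and the brightest probe sets of MLH3 (0.19) and PMS1 (-0.18) lie on opposite sides of 0.

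The genes that act with these proteins were read from lists. Of 14 measured genes of strand resynthesis and clamp loading, 0 passed for TMZ in shp105 cells and 0 in shControl cells, with medians of 0.09 and 0.07. In the line difference under TMZ, 5 of 14 were called, beside 21.1% of all genes: 2 were higher (RPA1 0.36 and RFC1 0.21) and 3 lower, among them RPA2 (-0.38) and the replication clamp PCNA (-0.22), with a median of -0.03. Under DMSO, 6 of 14 were called, beside 19.9% of all genes: 1 was higher and 5 lower, among them RPA3 (-0.26), RFC4 (-0.23), PCNA (-0.23) and RPA2 (-0.23), with a median of -0.06. RPA1, RPA2 and RPA3 are the subunits of the single-strand binding protein, and under TMZ the line differences of RPA1 and RPA2 had opposite signs.

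PCNA, which binds MutS complexes at replicating DNA and activates the MutLalpha nuclease, read 11.53, 11.49 and 11.50 in shp105 cells with TMZ and 11.27, 11.50 and 11.39 in shp105 cells with DMSO, against 11.74, 11.69 and 11.75 in shControl cells with TMZ and 11.65, 11.62 and 11.58 in shControl cells with DMSO. All 6 shp105 arrays lay below all 6 shControl arrays, as 18.1% of all genes were separated in either direction. Of 5 measured partners and chromatin factors, 1 was called between the lines under TMZ and 2 under DMSO, beside 21.1% and 19.9% of all genes. The nuclease FAN1, which binds the MutL complex, was higher in shp105 cells under TMZ (0.28, adjusted p = 0.0296) and under DMSO (0.32, adjusted p = 0.0147). The helicase MCM9 was higher under DMSO (0.22). No gene of that list passed for TMZ in either line.

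The ATR checkpoint is known to be switched on when mismatch repair acts on O6-methylguanine. Of 10 measured ATR genes, 0 passed for TMZ in either line. Between the lines under TMZ, 4 of 10 were called, beside 21.1% of all genes: HUS1 (0.15) and TIMELESS (0.22) were higher in shp105 cells, and CLSPN (-0.42) and TIPIN (-0.30) were lower. Under DMSO, 4 of 10 were called, beside 19.9%: HUS1 was higher (0.17), and TIPIN (-0.31), CLSPN (-0.33) and RAD1 (-0.24) were lower. Of 6 measured p53 response genes, 6 rose with TMZ in shp105 cells and 6 in shControl cells, beside 0.865% and 0.369% of all genes called. The cell-cycle inhibitor CDKN1A was at 0.92 and 0.88 and the p53 inhibitor MDM2 at 0.47 and 0.61. The list was chosen with earlier results of these data known, so the count is a description. Leaving out 1 array kept the CDKN1A call in both lines, while in shp105 cells the MDM2 call was lost in 2 such fits and that of TP53I3 (0.40) in 4 (adjusted p up to 0.110). Between the lines under TMZ, 1 of these genes was higher in shp105 cells and 2 were lower, beside 21.1% of all genes called. CDKN1A averaged 10.89 against 11.25 in shControl cells and FAS 9.36 against 9.79. Under DMSO, 2 were higher and 3 lower, beside 19.9%. CDKN1A averaged 9.97 against 10.37 and FAS 8.74 against 9.22, while MDM2 (9.79 against 9.46) and TP53I3 (7.82 against 7.46) were higher. These named line calls were kept without each array in turn. 

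EXO1 is known to be expressed most in dividing cells, so proliferation genes are given beside it. Of 17 measured, 1 rose with TMZ in shp105 cells, RRM2, a subunit of ribonucleotide reductase (0.42, adjusted p = 0.00161), and 0 passed in shControl cells (RRM2 0.22, adjusted p = 0.0711). Between the lines under TMZ, 6 of 17 were called, beside 21.1% of all genes: 5 were lower in shp105 cells, among them the proliferation antigen MKI67 (-0.36) and the replicative helicase subunits MCM7 (-0.20) and MCM2 (-0.26), and TYMS was higher (0.66). Under DMSO, 6 of 17 were called, beside 19.9% of all genes: 5 were lower, among them MKI67 (-0.41, adjusted p = 0.00144), RRM2 (-0.34, adjusted p = 0.000180) and MCM7 (-0.25), and TYMS was higher (0.61). RRM2 read 12.58, 12.62 and 12.58 in shp105 cells with TMZ and 12.18, 12.16 and 12.16 in shp105 cells with DMSO, against 12.74, 12.75 and 12.70 in shControl cells with TMZ and 12.53, 12.48 and 12.52 in shControl cells with DMSO. The p53 list aside, the named line differences of RPA1, RPA2, TIPIN, MKI67 and TYMS under TMZ were kept without each array in turn. So were those of RAD1, TIPIN, MKI67, RRM2, MCM7 and TYMS under DMSO. Every other named line difference of the resynthesis, partner, ATR and proliferation lists was lost without at least 1 array. The part of proliferation in the EXO1 differences was not tested, and in bulk RNA fewer dividing cells and less EXO1 per cell cannot be told apart.

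**Figure D5:**
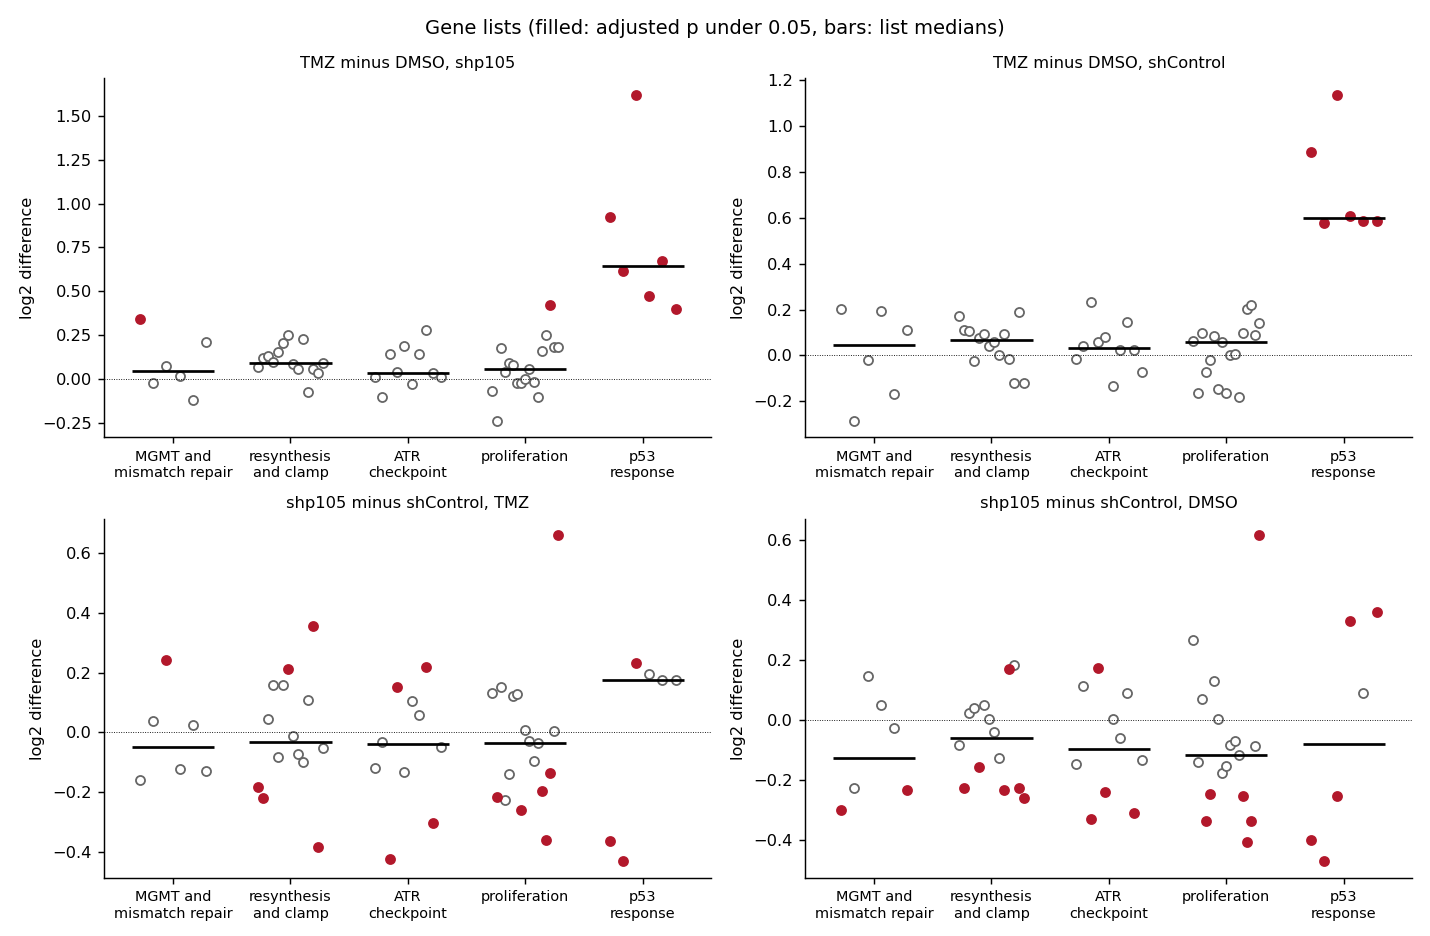
Log2 differences (vertical axis, with a separate scale in each panel) of the genes in 5 lists, with filled points for an adjusted p under 0.05 and bars for list medians. With TMZ, only the 6 p53 response genes are all filled, in both lines. In the line comparisons, filled points lie on both sides of 0 in the resynthesis, ATR, proliferation and p53 response lists.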

How the data were processed

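Total RNA of 12 U-87 MG samples was hybridised to Affymetrix expression arrays. The deposited table gives a log2 level for each probe set on each array. Affymetrix Power Tools and RMA were used, per the submitters' processing notes, with versions and annotation release not given in the sources used here. No value was missing. Of 54675 probe sets, 41097 had 1 gene symbol in the platform annotation (updated through RefSeq, GRCh38.p14), 1801 had several and 11777 had none. A gene was read from its probe set of highest mean, without a filter, giving 19775 genes.

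One limma model of the 4 group means (lmFit and eBayes, R 4.3.3, limma 3.58.1) gave 7 contrasts on the log2 scale. Tests are 2-sided, p-values were adjusted by Benjamini-Hochberg over the 19775 genes, and genes under 0.05 were called. Errors are the fit's standard errors or SDs with n = 3, and intervals cover 95%. The number of arrays limits the precision. Background came from 27 control probe sets for absent sequences. Promoters and motifs came from RefSeq. The fit was tested on simulated data.

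The text names the 6 measured members, NFKB1, up to 4 called genes per list and comparison by smallest p, and neighbouring starts. TP53I3 and the called markers of other cell types were named after their values were seen. The members and lists were chosen with earlier results of these data known. Same-numbered replicates of different groups correlated at -0.142 to 0.122 after group means were removed, so the numbers do not pair the samples. Alternatives covered normalization, probe-set summary, dim genes, variance model, samples in the fit, replicate block, spike-in level, threshold and each array left out. PMS2 and AIMP2 had no probe set with 1 symbol and were not analysed here.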

Additional observations from a re-analysis of the deposited data

How the results depend on the processing

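Counts below are of the 6 measured genes, and the cause of each change was not tested. For TMZ in shp105 cells (1 called), the count was 0 with median centring, array weights, the replicate block, the spike-in covariate, a threshold of 0.01 or only the compared groups, and 2 with dim genes left out or with trend and robust fitting. Leaving out 1 array gave 0 to 1. For TMZ in shControl cells (0 called), trend and robust fitting gave 1 (MSH6), and leaving out 1 array gave 0 to 0. For the line difference under TMZ (1 called), the mean of probe sets, the spike-in covariate, the threshold of 0.01 and only the compared groups each gave 0, and leaving out 1 array gave 0 to 1. For the line difference under DMSO (2 called), the mean of probe sets and the threshold of 0.01 gave 1, the spike-in covariate gave 0, only the compared groups gave 3 (MGMT added), and leaving out 1 array gave 1 to 3. Averaged over treatments (3 called), the mean of probe sets gave 1, the threshold of 0.01 gave 2 (MLH3 lost), the spike-in covariate 0 and leaving out 1 array 3 to 4. For TMZ averaged over lines (2 called), median centring, the mean of probe sets and the replicate block gave 1, the spike-in covariate and the threshold of 0.01 gave 0, quantile normalization, dim genes left out and trend and robust fitting gave 3 (PMS1 added, adjusted p 0.00822 to 0.0433), and leaving out 1 array gave 0 to 2. The interaction gave 0 in every fit run. PMS1 turned sign with the mean of probe sets, to 0.041 under DMSO (adjusted p = 0.779) and 0.015 over both treatments (0.868). With the spike-in covariate EXO1 read -0.28 under DMSO (adjusted p = 0.565). That covariate moves with the line, and calls over all genes under DMSO dropped to 523 with it, against 3937. The main fit did not pair samples by replicate number: with the block, 84 genes were called for TMZ in shp105 cells against 171 without it, and 349 for TMZ over both lines against 665. Over all alternatives that kept the 12 arrays or compared groups whole, the count of all genes called ranged from 2 to 937 for TMZ in shp105 cells and 0 to 358 in shControl cells, from 1045 to 4995 for the lines under TMZ, 523 to 4714 under DMSO and 854 to 6613 over both treatments, from 4 to 1743 for TMZ over both lines and from 0 to 12 for the interaction. Levels near the control range, those of MGMT above all, limit what the signal can show.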

Other observations

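The genes whose levels followed each repair gene most closely over the 12 arrays were found by Pearson's r over all 19775 genes, as a description, since the arrays share lines and treatments. For EXO1 they were TMEM106C (r = 0.98), the small GTPase RRAS (0.98) and the gamma-tubulin gene TUBG1 (0.97). For PMS1 they were the flap endonuclease gene FEN1 (0.96), SCCPDH (0.95) and SYDE1 (0.95). For MLH3 they were LINC02475 (0.96), the flotillin gene FLOT2 (0.95) and ARMC10 (0.95). For MSH6 they were MICU3 (0.94), the Wnt receptor gene FZD1 (0.93) and ALAD (0.91), an enzyme of haem synthesis. For MSH3 they were a probe set annotated to MIR4296 (0.87), ZNF275 (0.84) and the ubiquitin ligase scaffold CUL3 (0.84). MGMT was left out, since its level lay within the background range. MSH6 ran against MSH3 (r = -0.62) and EXO1 (r = -0.58) over the same arrays.

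Markers of other cell types were also read. Of the 4 measured leukocyte markers, PTPRC and CD14 lay within the background range, and CD3E (mean log2 level 5.78) and AIF1 (5.53) lay above it. CDH5 of the 4 endothelial markers and KRT19 of the 5 epithelial markers lay within it. None of these 13 markers passed for TMZ in either line. Between the lines, 21.1% of all genes were called under TMZ and 19.9% under DMSO. No leukocyte marker passed there. Of the 5 epithelial markers, 1 was called under TMZ and 2 under DMSO, and of the 4 endothelial markers, 0 and 1. The epithelial EPCAM was lower in shp105 cells under TMZ (-0.45, adjusted p = 0.0129) and under DMSO (-0.39, adjusted p = 0.0299). With 1 array left out, the EPCAM call was lost in 2 fits under TMZ (adjusted p up to 0.0533) and in 5 under DMSO (up to 0.110). Under DMSO the epithelial KRT18 was higher (0.33, adjusted p = 0.0247) and the endothelial KDR lower (-0.56, adjusted p = 0.000268) in shp105 cells. The KRT18 call was lost in 4 of the fits that left out 1 array (adjusted p up to 0.0908). KDR averaged 4.23 in shp105 cells with DMSO, within the control range, against 4.78 in shControl cells with DMSO. Those 3 shp105 arrays read 4.16, 4.36 and 4.16, above the highest control on their own array (3.88, 4.09 and 3.91). The level there was close to background, so the size of the KDR difference is uncertain.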
